A study of Mus musculus with 6 samples.

Results

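The genes described here are 10 members of the circadian clock and its direct output: Arntl (also called Bmal1), Clock, Npas2, Per2, Per3, Cry1, Nr1d1, Nr1d2, Dbp and Tef. They were taken by symbol from a table of 20594 genes, and each symbol was found in 1 row. Their RNA was measured in the colon of 3-week-old C57BL/6J mice. Dams of the maternal DSS group (3 libraries) received 1.5% dextran sulfate sodium during pregnancy, a sulfated polysaccharide that injures the colon lining, and dams of the control group (3 libraries) received 0%. The labels date the exposure to embryonic days 13 to 19, and the design text speaks of 5 days in the second trimester. Each label speaks of 3 offspring, so a library may be 1 animal or a pool. Litter, dam, sex and hour of collection are not given in the sources used here, so the spread between libraries may be partly technical, and effects of a shared dam cannot be told apart from those of DSS.

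The clock is a feedback loop of transcription that runs in nearly every cell. The proteins of Arntl and Clock (or Npas2, which can stand in for Clock) form a pair that binds E-box DNA and switches on Per, Cry, Nr1d and Dbp genes. The PER and CRY proteins then return to the nucleus and block that pair. The REV-ERB receptors made from Nr1d1 and Nr1d2 repress Arntl through ROR response elements, and the factors made from Dbp and Tef activate genes with D-box elements. In peripheral tissues of mice, RNA of Arntl, Clock, Npas2 and Cry1 is known to peak from late night to dawn (night-phase genes below), and RNA of Nr1d1, Dbp, Nr1d2, Tef, Per3 and Per2 from midday to dusk (day-phase genes). In the gut the clock is known for daily rhythms of digestion, cell division and barrier function, and glucocorticoids and feeding times can reset it.

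Windows around the start sites of 4 members are shown, as examples of promoters that carry elements of the kinds the clock proteins are known to bind. RefSeq (GRCm38.p6) gave 13 windows of 300 bases, from 250 before to 50 after a start site, for 9 of the 10 members. The 4 windows chosen are printed 5′ to 3′ on the gene's own strand, with the matched elements in capitals. The elements searched, on both strands, were the E-box CACGTG, its variant CACGTT, the D-box forms TTATGTAA and TTACGTAA, and the ROR response element; the forms do not overlap in the windows shown.
Arntl, chr7:113207261-113207560, plus strand: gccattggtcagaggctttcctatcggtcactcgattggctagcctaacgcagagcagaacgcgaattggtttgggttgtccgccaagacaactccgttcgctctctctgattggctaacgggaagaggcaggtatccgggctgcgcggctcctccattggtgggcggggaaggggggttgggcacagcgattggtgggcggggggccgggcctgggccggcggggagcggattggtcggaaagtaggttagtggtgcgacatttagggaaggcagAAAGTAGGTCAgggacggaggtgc
Cry1, chr10:85185005-85185304, minus strand: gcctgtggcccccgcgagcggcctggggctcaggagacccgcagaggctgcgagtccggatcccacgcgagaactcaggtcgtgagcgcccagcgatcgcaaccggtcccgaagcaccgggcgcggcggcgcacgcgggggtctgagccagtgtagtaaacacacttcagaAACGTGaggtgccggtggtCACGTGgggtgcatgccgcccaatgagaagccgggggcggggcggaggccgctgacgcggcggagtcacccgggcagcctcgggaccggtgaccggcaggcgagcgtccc
Per3, chr4:151044616-151044915, minus strand: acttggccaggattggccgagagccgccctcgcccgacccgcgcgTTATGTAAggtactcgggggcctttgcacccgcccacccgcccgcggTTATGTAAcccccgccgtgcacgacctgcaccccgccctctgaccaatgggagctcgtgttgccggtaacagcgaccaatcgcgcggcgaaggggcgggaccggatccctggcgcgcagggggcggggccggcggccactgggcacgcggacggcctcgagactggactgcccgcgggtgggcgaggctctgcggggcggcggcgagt
Tef, chr15:81802423-81802722, plus strand: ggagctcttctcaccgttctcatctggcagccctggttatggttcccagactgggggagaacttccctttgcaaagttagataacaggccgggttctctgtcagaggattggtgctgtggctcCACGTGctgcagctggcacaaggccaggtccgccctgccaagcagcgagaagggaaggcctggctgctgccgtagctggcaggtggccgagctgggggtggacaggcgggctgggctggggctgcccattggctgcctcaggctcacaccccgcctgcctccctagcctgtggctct
The Arntl window holds a ROR response element, found in 0.384% of all 32851 windows of this length. Cry1 holds CACGTG, found in 7.15% of windows, and, on the other strand, the variant CACGTT, found in 4.68%. Per3 holds TTATGTAA at 2 places, an element found in 0.938% of windows, and Tef holds CACGTG. Matches in windows not printed are CACGTT for Nr1d1 and CACGTG at a further start site of Tef. The printed windows were thus picked for their matches, and CACGTG was matched in 3 of the 13 member windows. No element was matched in any window of Npas2, Clock, Dbp or Nr1d2, or in the other Arntl window. The D-box form TTACGTAA, found in 0.119% of windows, was matched in no window of a member. A match of letters is a description of the sequence and not a measured binding site.

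All values are FPKM, the authors' fragment counts scaled by transcript length and library total, so they can be compared between genes. The deposited table gives no read counts, so the depth is unknown. The FPKM of a library summed to between 417270 and 492719 in the maternal DSS group and between 403673 and 432783 in controls. Of 8 colon epithelium markers, all were in the table and none was at 0 in any library, and they summed to 7768 to 9593 FPKM in maternal DSS libraries and 6720 to 8050 in controls. Of 8 small intestine and Paneth cell markers 7 were in the table, and they summed to 16.8, 117 and 116 FPKM in maternal DSS 1, 2 and 3, against 14.7 to 29.0 FPKM in controls. Maternal DSS 2 and 3 thus stood apart from the other 4 libraries in small-intestinal transcripts.

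No clock gene passed the test between maternal DSS and control offspring. All 10 members reached 1 FPKM in 3 or more libraries, the filter for testing, as did 13594 genes in all. In limma, with Benjamini-Hochberg adjustment over those genes, 0 of 10 members had an adjusted p under 0.05 (0% of all tested genes), and their smallest adjusted p was 0.62. Clock alone had an unadjusted p under 0.05, and 7.83% of all tested genes did (1064 genes). It was lower in maternal DSS, as were 5.41% of all tested genes at that p, and no member was higher at that p, against 2.42% of all tested genes. The fold change was below 0 in 9 of 10 members and in 59.7% of all tested genes, and above 0 in 1 member and in 40.3% of all tested genes. Scaling moved this split: 10 members were below 0 after TPM scaling, 6 once the length trend of each library was removed and 8 after median-ratio scaling. The median log2 fold change of all tested genes moved too, to -0.14, 0.005 and 0.009 in that order. Below that median lay 9, 6 and 8 members in that order, against 8 members as deposited. Of the genes with an unadjusted p under 0.05, 30.9% were higher in maternal DSS as deposited, 10.5% after TPM scaling, 48% once the length trend was removed and 48.4% after median-ratio scaling. The median log2 fold change, maternal DSS minus control on log2(FPKM + 1), was -0.10 over the members, -0.23 over the 4 night-phase genes, -0.06 over the 6 day-phase genes and -0.04 over all tested genes. Maternal DSS 1 weighed on these counts. Without it limma called 10 genes, none of them a member, and 3349 genes had an unadjusted p under 0.05, among them 4 members (Clock, Cry1, Per2 and Per3). Without maternal DSS 2 there were 622 such genes and 2 such members (Clock and Arntl). The count of such genes was 623 without maternal DSS 3, 487 without control 1 and 394 without control 2. Without control 3 it was 1296, above the 1064 with all libraries. Each time there was 1 such member, Clock. With libraries weighted by their fit (array weights), limma called 4933 of the 13594 tested genes and 5 of 10 members (Clock, Cry1, Per2, Per3 and Tef, all lower). How many of all called genes were lower is not given here. That fit gave maternal DSS 1 a weight of 0.249, maternal DSS 3 one of 0.454 and maternal DSS 2 one of 5.47. The maternal DSS side thus rested mostly on maternal DSS 2.

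**Figure D1:**
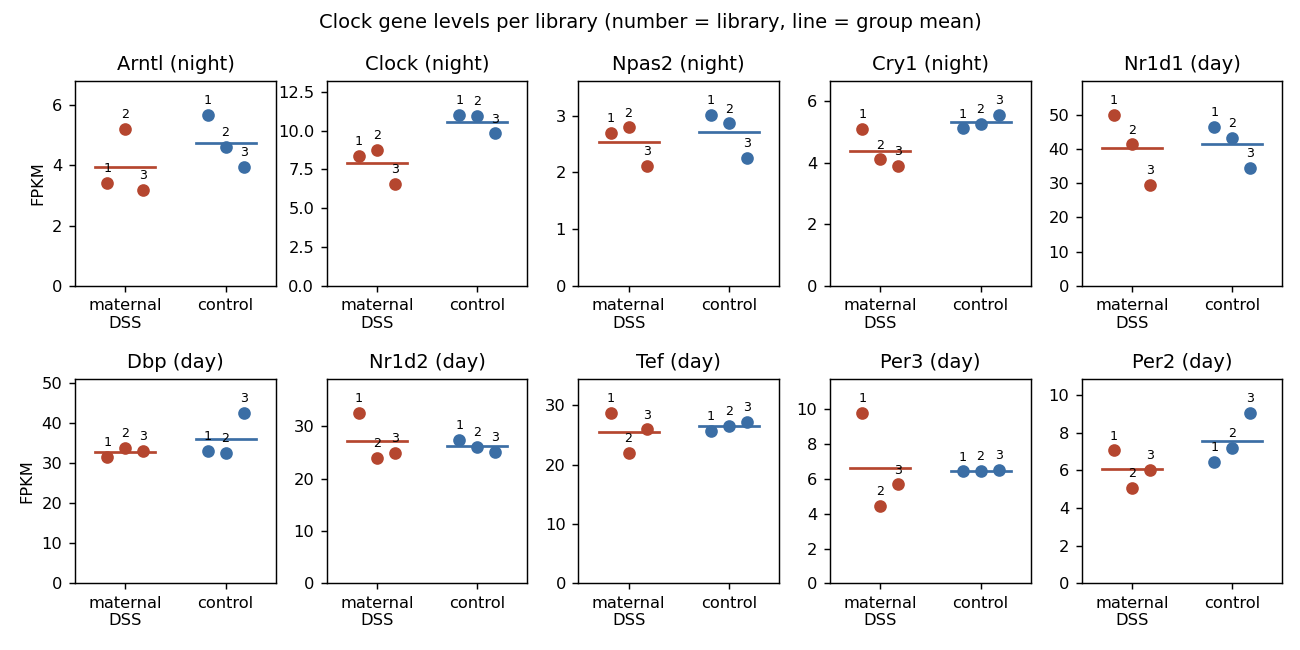
FPKM of the 10 clock genes, 1 panel per gene, with maternal DSS libraries on the left (red) and control libraries on the right (blue). Points are libraries with their replicate number and the line is the mean of 3; Clock lies lower in all 3 maternal DSS libraries, while the 3 control values of Per3 nearly coincide and its maternal DSS values span 2.20-fold.

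The activator genes come first. Clock (chromosome 5, 76209868 to 76305603), whose protein is the DNA-binding partner of the Arntl product, had 8.38, 8.76 and 6.58 FPKM in maternal DSS libraries 1, 2 and 3, against 11.0, 10.9 and 9.82 FPKM in control libraries 1, 2 and 3. The groups did not overlap, and every maternal DSS value was below the lowest control. The mean was 7.91 ± 1.17 FPKM in maternal DSS and 10.6 ± 0.664 in controls (SD, n = 3 each), a ratio of 0.747. The log2 fold change was -0.39 (SE 0.11, 95% interval -0.65 to -0.12), with an unadjusted p = 0.011 and an adjusted p = 0.62 in limma. It was the most negative of the 10 members and stood at percentile 1.58 of all tested genes. Groups that do not overlap in the lower direction were seen in 2 of 10 members, Clock and Cry1, and in 9.14% of all tested genes.

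Fold changes over all tested genes fell with transcript length, and Clock has a long transcript. The longest annotated Clock transcript has 9744 nt, which puts it in the longest decile of tested genes (6575 nt and over). Genes in that decile had a median log2 fold change of -0.18, and 91.7% of them were below 0. In the shortest decile (1053 nt and under) the median was 0.09 and 26.2% were below 0. Relative to the control mean, the longest decile had a median log2 difference of 0.03, -0.18 and -0.39 in maternal DSS 1, 2 and 3, against 0.05, 0.06 and -0.11 in controls 1, 2 and 3. Clock itself stood at -0.30, -0.25 and -0.61 in maternal DSS 1, 2 and 3, against 0.05, 0.04 and -0.10 in controls 1, 2 and 3. With the length trend of each library removed, its log2 fold change was -0.18 (unadjusted p = 0.06, adjusted p = 0.56 in limma), against -0.39 without that step. Its differences were then -0.33, -0.05 and -0.17 in maternal DSS libraries, against 0.00, -0.03 and 0.03 in controls. Those groups still did not overlap, though maternal DSS 2 and control 2 were only 0.02 apart. Within its own length decile Clock stood at percentile 4.17 of fold change. The part of transcript length in the Clock difference was not tested beyond this correction.

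**Figure D2:**
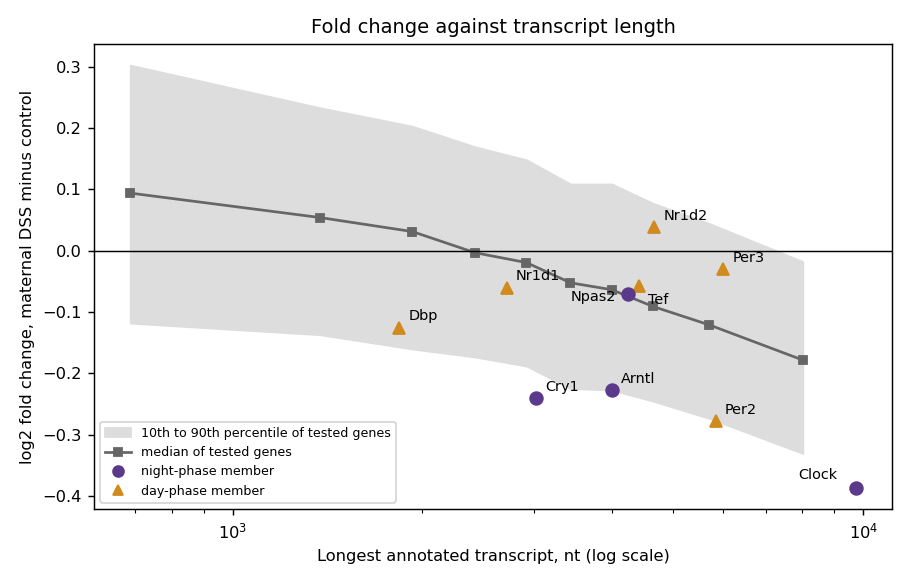
Log2 fold change (maternal DSS minus control) against the longest annotated transcript in nt, on a log axis. The grey line and band give the median and the 10th to 90th percentile of tested genes in deciles of length, falling to a median of -0.18 in the longest decile; circles are night-phase and triangles day-phase clock genes, with Clock at 9744 nt and -0.39.

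Marker sums of other cell types are set beside the Clock values. The small intestine markers summed to 16.8, 117 and 116 FPKM in maternal DSS 1, 2 and 3, against 14.7 to 29.0 FPKM in controls. Clock had 8.38, 8.76 and 6.58 FPKM in those maternal DSS libraries, against 9.82 to 11.0 FPKM in controls. The 7 enteric neuron and glia markers, all tested and none at 0, summed to 22.2 to 23.0 FPKM in maternal DSS libraries and 23.9 to 27.5 in controls, with 6 of 7 fold changes below 0. The 6 smooth muscle markers summed to 2391 to 3079 FPKM in maternal DSS libraries and 2871 to 3035 in controls. None of their 6 fold changes was above 0. The 5 B and plasma cell markers summed to 59.7 to 408 FPKM in maternal DSS libraries and 39.5 to 54.4 in controls. The 5 T cell markers summed to 4.53 to 7.50 FPKM in maternal DSS libraries and 3.83 to 5.10 in controls. Of these 3 were tested, all with a fold change above 0. Adipocyte and macrophage sums overlapped between the groups. The part of these cell types in the Clock result was not tested, and in bulk tissue fewer cells of a type and less RNA per cell cannot be told apart.

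Arntl (chromosome 7, 113178471 to 113314126), the partner without which the loop stops, had 3.43, 5.22 and 3.20 FPKM in maternal DSS libraries 1, 2 and 3, against 5.67, 4.60 and 3.96 FPKM in controls. Maternal DSS 1 and 3 were the lowest of the 6 libraries, while maternal DSS 2 was the second highest. Arntl had a log2 fold change of -0.23 with an SE of 0.18, and limma gave an adjusted p = 0.67. Npas2 (chromosome 1, 39193702 to 39363240), the Clock paralog, had 2.69, 2.79 and 2.11 FPKM in maternal DSS libraries, against 3.01, 2.86 and 2.26 FPKM in controls. Its groups overlapped, with the lowest value of each group in library 3, and its log2 fold change was -0.07 (SE 0.12, adjusted p = 0.85).

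Of the repressors of the activator pair, Cry1 (chromosome 10, 85131700 to 85185054) had 5.11, 4.11 and 3.89 FPKM in maternal DSS libraries, against 5.12, 5.28 and 5.55 FPKM in controls. Every maternal DSS value was below the lowest control, but maternal DSS 1 only by 0.01 FPKM. The mean was 4.37 ± 0.649 FPKM in maternal DSS and 5.32 ± 0.22 in controls (SD, n = 3 each), and the log2 fold change was -0.24 (SE 0.11, 95% interval -0.49 to 0.01, unadjusted p = 0.056, adjusted p = 0.62 in limma). The longest Cry1 transcript has 3026 nt, a length decile whose median log2 fold change was -0.02. With the length trend removed the Cry1 groups overlapped, but only in that maternal DSS 1 (-0.05) lay above control 1 (-0.07). The log2 fold change was then -0.21 (unadjusted p = 0.061, adjusted p = 0.57 in limma).

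Per2 (chromosome 1, 91415977 to 91459351), a repressor that light, feeding and glucocorticoids can induce directly, had 7.06, 5.06 and 6.02 FPKM in maternal DSS libraries, against 6.43, 7.18 and 9.05 FPKM in controls. Maternal DSS 2 was the lowest library and control 3 the highest, and the groups overlapped. Its mean difference was -0.28 in log2 (SE 0.15, adjusted p = 0.62 in limma). Per3 (chromosome 4, 150997018 to 151044707), the Per gene whose promoter carries both D-box matches above, had 9.77, 4.43 and 5.68 FPKM in maternal DSS libraries, against 6.42, 6.45 and 6.52 FPKM in controls. The control libraries lay within 1.02-fold of each other and the maternal DSS libraries on both sides of them, spanning 2.20-fold. The mean difference was near 0, with a log2 fold change of -0.03 (SE 0.23, 95% interval -0.56 to 0.50).

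Nr1d1 (chromosome 11, 98767932 to 98775377), which encodes the Arntl repressor REV-ERB alpha, had the highest mean of the members, with 50.0, 41.4 and 29.5 FPKM in maternal DSS libraries, against 46.5, 43.2 and 34.6 FPKM in controls. In both groups library 1 was highest and library 3 lowest. Its mean difference was -0.06 in log2 (SE 0.20, adjusted p = 0.92 in limma). Nr1d2 (chromosome 14, 18204056 to 18239106), the gene of REV-ERB beta, had 32.6, 24.0 and 24.9 FPKM in maternal DSS libraries, against 27.4, 26.1 and 25.1 FPKM in controls. Maternal DSS 1 was the highest library and the other 2 of its group the lowest. It was the 1 member with a positive fold change (0.04, SE 0.12), and that sign turned to -0.07 after scaling to equal library sums (TPM scaling).

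The output factors Dbp and Tef belong to one family of D-box activators. Dbp (chromosome 7, 45705100 to 45710203), an output gene with one of the widest daily swings in mouse tissues, had 31.5, 33.7 and 33.1 FPKM in maternal DSS libraries, against 33.1, 32.6 and 42.5 FPKM in controls. Control 3 was high and the other 5 libraries lay close together. The mean was 32.8 ± 1.12 FPKM in maternal DSS and 36.1 ± 5.6 in controls (SD, n = 3 each). Its log2 fold change of -0.13 had an SE of 0.11 and an adjusted p = 0.7 in limma, and it was -0.00409 without control 3. Tef (chromosome 15, 81802673 to 81826863) had 28.7, 22.0 and 25.9 FPKM in maternal DSS libraries, against 25.7, 26.6 and 27.2 FPKM in controls. Maternal DSS 1 was the highest and maternal DSS 2 the lowest of the 6 libraries (log2 fold change -0.06, SE 0.10).

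Averaged over the 6 libraries, the levels fell into a high and a low set. Nr1d1 averaged 40.9 ± 7.61 FPKM (SD, n = 6), Dbp 34.4 ± 4.04, Nr1d2 26.7 ± 3.11 and Tef 26.0 ± 2.24. Clock followed with 9.25 ± 1.7 FPKM, Per2 with 6.80 ± 1.34, Per3 with 6.54 ± 1.77, Cry1 with 4.84 ± 0.676, Arntl with 4.35 ± 0.989 and Npas2 with 2.62 ± 0.355. Neighbours in this order overlapped in their ranges over libraries, except at 2 places: every library had more Tef than any had Clock, and more Arntl than any had Npas2.

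Day-phase genes were next set against night-phase genes within each library, as a check that bears on the hour of collection. The index is the mean log2(FPKM + 1) of the 6 day-phase genes minus that of the 4 night-phase genes, and it is a description with no test. It was 2.05, 1.57 and 1.94 in maternal DSS 1, 2 and 3, against 1.60, 1.67 and 1.85 in controls 1, 2 and 3. The groups overlapped, with maternal DSS 2 the lowest library and maternal DSS 1 the highest. The mean was 1.85 ± 0.25 in maternal DSS and 1.71 ± 0.13 in controls (SD, n = 3 each), a difference of 0.15, smaller than the spread within the maternal DSS group. The night-phase mean was 2.47, 2.55 and 2.23 in maternal DSS libraries, against 2.73, 2.67 and 2.54 in controls, where maternal DSS 2 lay just above control 3. The day-phase mean was 4.52, 4.12 and 4.17 in maternal DSS libraries, against 4.34, 4.33 and 4.39 in controls, so the maternal DSS libraries lay on both sides of a narrow control range. The difference of the index was 0.05 without maternal DSS 1 and 0.29 without maternal DSS 2, against 0.15 with all libraries. Without control 1 it was 0.09. With array weights, an alternative added after the values were seen, its sign turned, to -0.04. It also depended on the genes taken: with Dbp and Nr1d1 against Arntl and Npas2 alone it was 0.06.

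**Figure D3:**
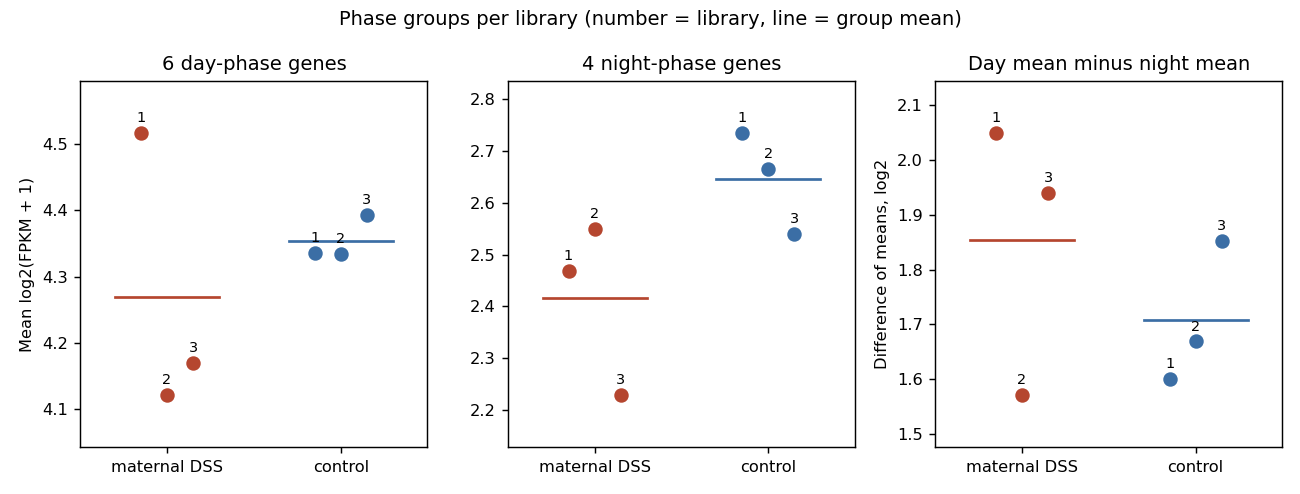
Mean log2(FPKM + 1) of the 6 day-phase genes (left), the 4 night-phase genes (middle) and their difference (right) in each library, maternal DSS in red and control in blue, with replicate numbers and group means as lines. The vertical axes do not start at 0; the index overlaps between the groups, from 1.57 to 2.05 in maternal DSS and from 1.60 to 1.85 in controls.

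The highest and lowest values of the members were spread over 5 of the 6 libraries. Maternal DSS 1 was the highest of the 6 libraries in 4 of 6 day-phase genes (Nr1d1, Nr1d2, Tef and Per3), and maternal DSS 2 the lowest in 4 of 6 (Nr1d2, Tef, Per3 and Per2). Maternal DSS 3 was the lowest in all 4 night-phase genes and in Nr1d1, and control 1 the highest in 3 night-phase genes. Control 3 was the highest in Dbp, Per2 and Cry1. Over all tested genes, maternal DSS 1 was the highest library in 19.8%, and maternal DSS 2 and 3 were the lowest in 19.9% and 30.7%. Control 1 and 3 were the highest in 19.6% and 9.15%. Single ratios of FPKM, chosen after the values were seen, also varied within groups. The ratio of Dbp to Arntl was 9.19, 6.46 and 10.3 in maternal DSS libraries, against 5.84, 7.09 and 10.7 in controls. The ratio of Dbp to Nr1d1, both day-phase genes with Nr1d1 the earlier, was 0.631, 0.814 and 1.12 in maternal DSS libraries, against 0.711, 0.755 and 1.23 in controls. In both groups library 3 had the highest of these ratios.

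**Figure D4:**
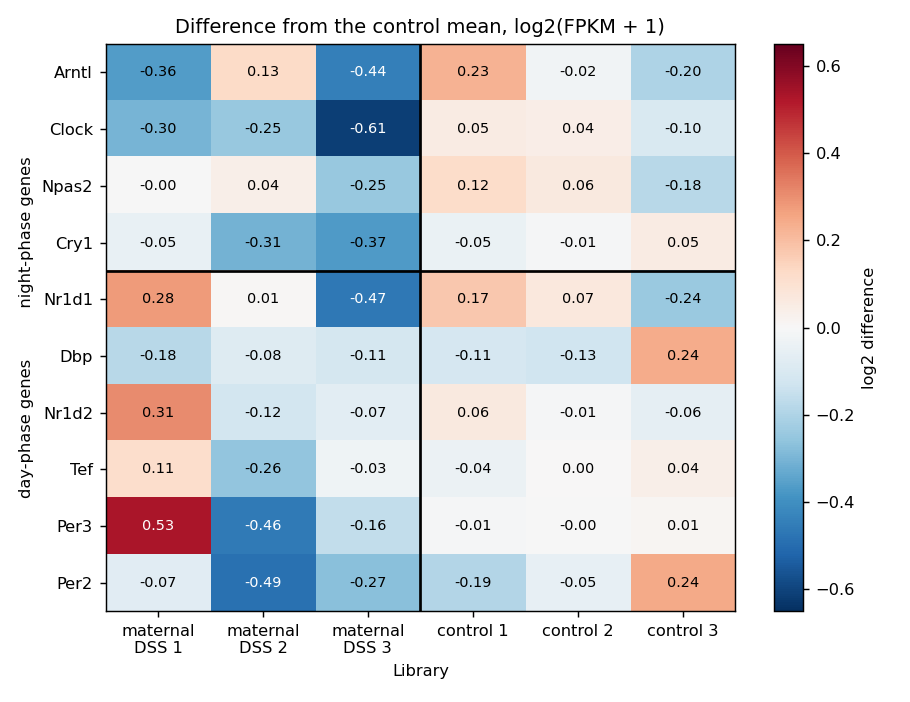
Difference of each clock gene in each library from the control mean, in log2(FPKM + 1), with maternal DSS libraries in the 3 left columns and night-phase genes in the top 4 rows. Red is higher and blue lower; maternal DSS 1 shows Per3 at 0.53 and maternal DSS 2 shows it at -0.46, and Clock is negative in all 3 maternal DSS libraries.

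Spread within groups was wide for several members. The residual SD, on log2(FPKM + 1) within groups, was above the median of all tested genes (0.13) in 9 of 10 members, Tef being barely above it and Cry1 below, and in 7 of 10 after median-ratio scaling. Among all tested genes Per3 stood at percentile 95.3, Nr1d1 at 92.9, Arntl at 89.1 and Per2 at 80.1. The SD was larger in the maternal DSS group than in controls for 7 of 10 members (70%), close to the 68.7% of all tested genes. It was more than 2 times larger for 5 of 10 members, Per3, Tef, Nr1d2, Cry1 and Clock, and for 30.3% of all tested genes. Per3 had an SD of 0.51 in maternal DSS and 0.01 in controls, at percentiles 97.1 and 0.736 of all tested genes in those groups. Dbp went the other way, with an SD of 0.05 in maternal DSS and 0.21 in controls, where control 3 was high.

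Other genes of the loop gave 0 calls as well. Of 10 other core clock and loop genes 8 were tested, and 7 had a fold change below 0 (median -0.09). Bhlhe40, which encodes an E-box-binding repressor (DEC1), had 39.0, 37.3 and 33.1 FPKM in maternal DSS libraries, against 47.5, 42.0 and 42.3 FPKM in controls. Its groups did not overlap (log2 fold change -0.26, SE 0.09, with an unadjusted p = 0.021, adjusted p = 0.62 in limma). Cry2, the Cry1 paralog, had 8.69, 5.67 and 6.15 FPKM in maternal DSS libraries, against 8.11, 8.22 and 7.19 FPKM in controls, and the groups overlapped. Ciart, a repressor that cycles with the day-phase genes, had 6.29, 6.58 and 7.90 FPKM in maternal DSS libraries, against 5.35, 4.57 and 9.06 FPKM in controls, with the highest value in control 3. Rorb and Bhlhe41 stayed under the filter, with at most 0.0368 and 0.858 FPKM.

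Of 16 clock kinases, ubiquitin ligases and partners 15 were tested, with a median log2 fold change of -0.06. Tipin, which encodes the partner of Timeless in replication fork protection, had 8.09, 8.47 and 7.92 FPKM in maternal DSS libraries, against 6.34, 5.95 and 6.03 FPKM in controls. Every maternal DSS value was above the highest control (log2 fold change 0.37, SE 0.07, unadjusted p = 0.0016, adjusted p = 0.61 in limma), as in 4.92% of all tested genes. Timeless itself overlapped between the groups (log2 fold change 0.08). The kinase gene Gsk3b had a log2 fold change of -0.22 and the deubiquitinase gene Usp7 one of -0.20, neither with an unadjusted p under 0.05.

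Of 14 widely cycling output genes all were tested, 9 had a fold change above 0 and none had an unadjusted p under 0.05 (median 0.01). Noct, a clock-driven gene of lipid handling also called nocturnin, had 11.4, 11.4 and 11.9 FPKM in maternal DSS libraries, against 10.6, 9.65 and 10.9 FPKM in controls, without overlap (log2 fold change 0.15 with an SE of 0.08, adjusted p = 0.62 in limma). Its longest transcript has 9797 nt, in the longest decile, where 91.7% of tested genes had a fold change below 0. The part of transcript length in the Noct values was not tested. Tspan4, a tetraspanin gene that cycles in many organs, had a log2 fold change of 0.12 with overlapping groups. In 5 of these 14 genes (Noct, Tsc22d3, Usp2, Tspan4 and Ciart) library 3 was the highest of its group in both groups, which held for 16.6% of all tested genes. Library 3 was the lowest of its group in both groups for 4 of 10 members (Arntl, Clock, Npas2 and Nr1d1), against 27.9% of all tested genes, and for 9 of the 15 clock kinases, ligases and partners (60%). Of the glucocorticoid targets described next, 5 of 9 (55.6%) were highest in library 3 of both groups. These shares by library number were looked at after the values were seen.

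Glucocorticoid targets that also cycle were listed because the hormone peaks daily and acts on Per genes. Of 9, all tested, 2 had an unadjusted p under 0.05 and were higher in all 3 maternal DSS libraries, Fkbp5 and Zbtb16. Over all tested genes 2.42% were higher at that p, and 4.92% were higher in all 3. Zbtb16 passed the filter only through the maternal DSS libraries, as control 3 alone among controls reached 1 FPKM. Its place in this count thus depended on the group where it was high. Fkbp5, a co-chaperone gene of the glucocorticoid receptor, had 43.4, 46.8 and 49.0 FPKM in maternal DSS libraries, against 20.0, 21.0 and 32.7 FPKM in controls (log2 fold change 0.92, adjusted p = 0.61 in limma). Zbtb16, which encodes the zinc finger factor PLZF, had 3.89, 2.70 and 3.30 FPKM in maternal DSS libraries, against 0.399, 0.449 and 1.65 FPKM in controls (log2 fold change 1.29, adjusted p = 0.61 in limma). In both genes control 3 was well above the other controls and below every maternal DSS library. Klf9, a transcription factor gene, had 28.5, 25.5 and 24.5 FPKM in maternal DSS libraries, against 21.4, 23.2 and 25.7 FPKM in controls, and the groups overlapped. Per1, which belongs to this list and to the core loop, had 11.4, 7.67 and 10.4 FPKM in maternal DSS libraries, against 8.17, 9.56 and 12.0 FPKM in controls. Its groups overlapped, and its log2 fold change was -0.01 (SE 0.17). Sgk1, an ion transport kinase gene, had 64.7, 62.8 and 118 FPKM in maternal DSS libraries, against 69.8, 66.6 and 128 FPKM in controls, so library 3 was high in both groups as for the ratio of Dbp to Nr1d1. The part of the hour of collection or of hormone level in these values was not tested.

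**Figure D5:**
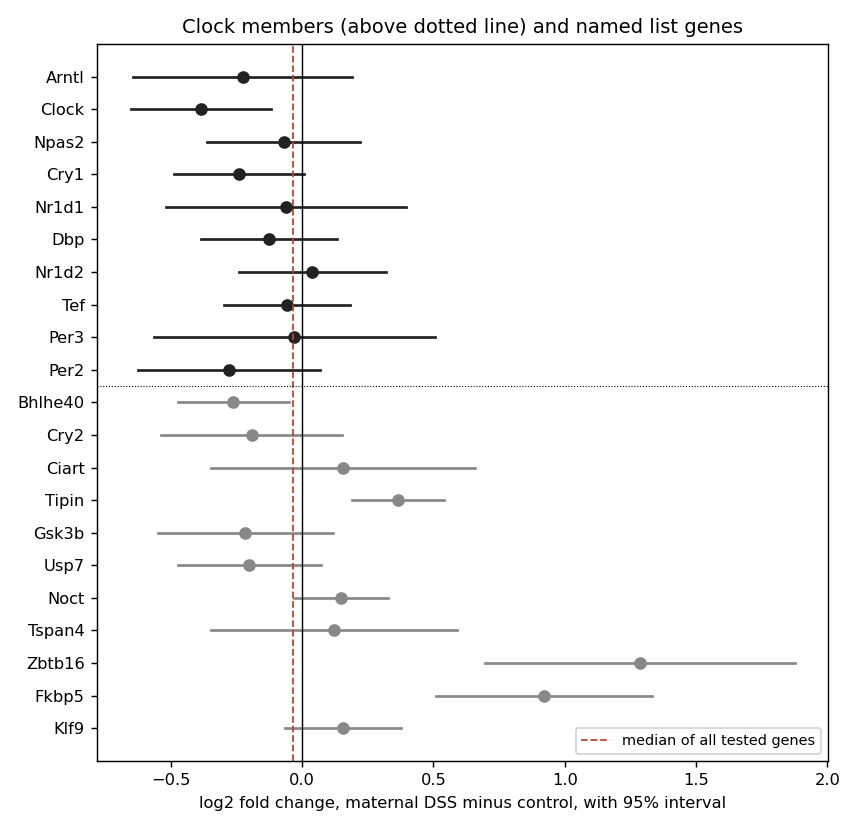
Log2 fold change (maternal DSS minus control) with its 95% interval from limma for the 10 clock members (black, above the dotted line) and the named genes of the other lists (grey). The dashed line is the median of all tested genes (-0.04); among the members the interval of Clock alone lies wholly below 0.

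The genes whose pattern over the 6 libraries lay nearest to a member were found by the mean absolute difference of centred log2(FPKM + 1). Nearest to Dbp were Alkbh2 (0.02), Ccl21a (0.03), Plet1 (0.04), St13 (0.04) and Plscr2 (0.04), all with their highest value in control 3. Nearest to Arntl were St3gal4 (0.05), Ccl2 (0.07), Cdkn2b (0.09), Abat (0.09) and Apol9a (0.09). Ranked among the other 13593 tested genes, Npas2 was the 138th and Clock the 518th nearest to Arntl, while Nr1d1 was the 2402nd. The remaining members were far from Arntl, with Cry1 at rank 6915, Nr1d2 at 9841 and Dbp at 10224. Tef stood at 11423, Per2 at 12472 and Per3 at 12931. The member nearest to Dbp was Per2, at rank 4204.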

How the data were processed

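Colon RNA of 6 libraries was analysed, 3 maternal DSS and 3 control, grouped by their labels. Stranded mRNA libraries were prepared from RNA isolated with a kit for lipid-rich tissue, per the labels' protocols. The authors deposited FPKM per gene. The submitters' processing notes list HISAT2 2.1.0, StringTie 2.1.3b, Trimmomatic 0.38, FastQC 0.11.7, DESeq2 and the build mm10, with no role or order, and no annotation is given in the sources used here. Low values showed no steps of whole reads, so depth is unknown and intervals cover only the spread between libraries.

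Values were taken as log2(FPKM + 1), which understates changes of low genes, and compared between groups in limma 3.58.1 (R 4.3.3), using a mean-variance trend and no covariate. Genes reaching 1 FPKM in 3 or more libraries were tested (13594 of 20594), with Benjamini-Hochberg adjustment and a threshold of 0.05. Alternatives changed the scaling, pseudocount, filter, weights, trend, length correction, replicate block and libraries. The members, lists and tests were chosen with earlier results of these data known. From each list, genes with an unadjusted p under 0.05 were named, or the 3 largest fold changes where fewer than 3 had one; genes named beyond that (Per1, Sgk1, Timeless, those under the filter or with library 3 extreme) were picked after their values were seen. Transcript lengths are the longest GENCODE M21 transcript per symbol (97.1% of tested genes), and coordinates come from RefSeq GRCm38.p6, the assembly that mm10 names. Replicate numbers were not taken to pair the libraries.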

Additional observations from a re-analysis of the deposited data

How the results depend on the processing

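The count of called genes was 0 under every alternative except 2. With array weights, maternal DSS 2 weighed 5.47, maternal DSS 3 0.454 and maternal DSS 1 0.249, so the maternal DSS side rested mostly on maternal DSS 2. In that fit limma called 4933 of 13594 tested genes, among them 5 of 10 members (Clock at -0.31, Cry1 at -0.28, Per2 at -0.38, Per3 at -0.39 and Tef at -0.22, adjusted p from 0.014 to 0.041). The weighted fit also called 3 other core clock genes, 5 kinases, ligases and partners, 1 cycling output gene and 3 glucocorticoid targets. Leaving out single libraries gave 0 to 10 calls. The cause was not tested.

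Of 148 member values under alternatives, 14 changed sign, all without a call. Nr1d2 became -0.0704 after TPM scaling and -0.11 with array weights, Arntl 0.0110 with array weights, and Per3 0.0164 after median-ratio scaling. With the length trend removed, Tef became 0.0278, Per3 0.10 and Npas2 0.00787. Leaving out single libraries gave ranges of -0.23 to 0.14 for Nr1d1, -0.0944 to 0.12 for Nr1d2, -0.14 to 0.0429 for Tef, -0.31 to 0.18 for Per3 and -0.16 to 0.02 for Npas2. Clock, Cry1, Per2 and Dbp had negative fold changes in every setting run, from -0.52 to -0.18 for Clock (adjusted p from 0.018 to 1). The index difference was positive under every alternative computed for it, from 0.05 to 0.29, except with array weights, where it was -0.0435. After TPM scaling the median over all genes was -0.14 in log2, against -0.04 as deposited.

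Deviations of same-numbered libraries correlated at 0.276, -0.384 and 0.404 over tested genes. Since pair 2 went the other way, the numbers were not taken to pair the libraries. With the replicate block the count of calls was 0, 1678 genes had an unadjusted p under 0.05 against 1064, and Clock had an adjusted p = 0.39. Not every library correlated best with its own number, though maternal DSS 3, control 3 and control 1 did. With 3 libraries a group and unknown depth, small changes could not be resolved.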
